A study of Mus musculus with 12 samples.

Results

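The liver immune cell fraction was compared between mice on a high-fat diet (HFD) and mice on a normal chow diet (NCD), over both genotypes of the study. Members were chosen by their diet label, and 11 of the 12 libraries were used, 6 from HFD and 5 from NCD. The groups were WT-NCD (2 libraries), WT-HFD (3), Casp11-/- NCD (3) and Casp11-/- HFD (3). WT mice were C57BL/6 by the labels and C57BL/6J by the methods, and the libraries labelled Casp11-/- came from the strain B6.129S4(D2)-Casp4tm1Yuan/J, which lacks caspase-11, the cytosolic sensor of bacterial lipopolysaccharide. According to the methods, male mice entered the diet at 8 to 10 weeks of age and stayed on it for 12 weeks. No treatment other than the diet was given to these groups. The labels call the cells hepatic macrophages, whereas the methods describe an immune cell fraction taken on Percoll after red cell lysis, with no sort for one cell type. Nothing in the labels says that same-numbered mice were related, and the p-values measure the spread between these libraries.

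The liver holds several cell types beside hepatocytes. Kupffer cells are its resident macrophages, which sit in the sinusoids and take up lipoproteins, dying cells, bacteria and old red cells. Sinusoidal endothelial cells line the same vessels, stellate cells store retinoids, and B, T and NK cells enter with the blood. In fatty liver, macrophages take up and release lipid. The liver X receptor (LXR) and the sterol-regulated transcription factor SREBP2 set genes of cholesterol export and synthesis in opposite ways.

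Reads per gene could be recovered from the deposited values, since each value was proportional to the reads plus 0.5 divided by gene length, and 99.92% to 99.97% of the values tested lay within 0.1 of a whole read. WT-NCD replicate 3, which was left out, held the value of 0 reads in nearly every gene. Reads in genes numbered 6262664 to 11811342 in the 5 NCD libraries and 1781051 to 10693638 in the 6 HFD libraries, lower on HFD except in Casp11-/- HFD replicate 3, which exceeded 4 of the NCD libraries. U3 small nucleolar RNA took 1.24% to 4.84% of the deposited TPM in NCD libraries and 25.8% to 58.5% in HFD libraries. For this reason all levels below are TPM, a level per gene length, rescaled so that the protein-coding genes of a library sum to 1000000. Values under 6.79, the highest rescaled floor of the 11 libraries, were raised to it. Reads thinned to the same number in each library gave 574 genes higher and 657 lower, beside 760 and 919 without thinning. The first principal component held 44.5% of the variance. It put the HFD libraries at 11.8 to 58.3 and the NCD libraries at −75.7 to −44.3, except Casp11-/- NCD replicate 2 at 3.92.

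**Figure D1:**
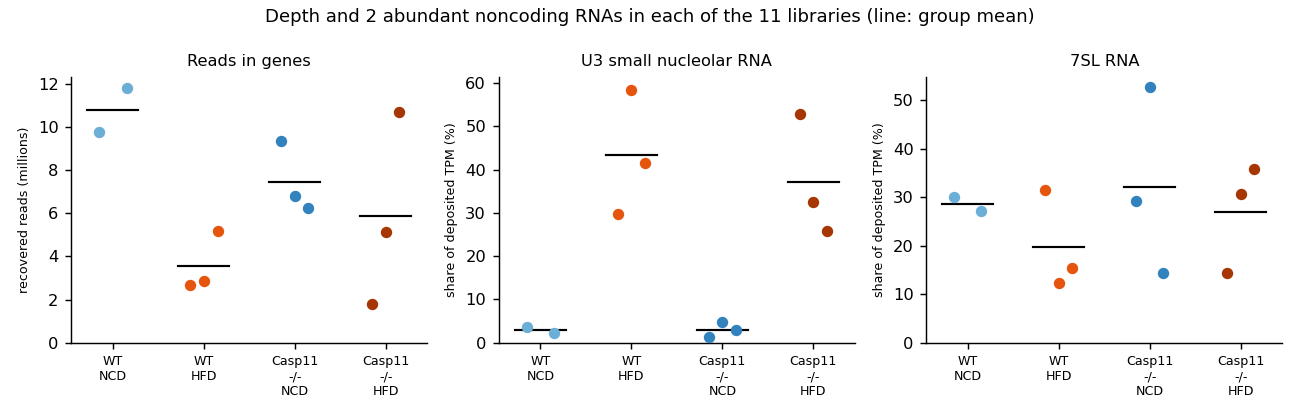
Recovered reads in genes, share of the deposited TPM on U3 small nucleolar RNA (%) and share on 7SL RNA (%) in each of the 11 libraries, with points for libraries and lines for group means. U3 RNA held 25.8% to 58.5% in the 6 HFD libraries and 1.24% to 4.84% in the 5 NCD libraries, while the 7SL shares of the diets overlapped.

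Casp4, the gene of caspase-11, was at 35.9 and 41.6 in WT-NCD and at 29.6, 37.8 and 46.4 in WT-HFD. The libraries labelled Casp11-/- NCD had 13.5, 11.8 and 36.1, and those labelled Casp11-/- HFD had 15, 38.1 and 21.2. Replicate 3 of the former and replicate 2 of the latter thus lay inside the WT range, and the heading of the latter's values abbreviates its genotype unlike the others. Gene-level values cannot tell the exons apart, so genotypes are given as labelled. Casp4 did not pass the diet test (log2 difference 0.16 ± 0.32 SE, adjusted p = 0.733).

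Of 14756 genes tested, 760 were higher on HFD (5.15%) and 919 were lower (6.23%), at a Benjamini-Hochberg adjusted p under 0.05 in limma with genotype as a covariate. The median change was 2.47-fold for the higher genes and 2.08-fold for the lower ones. All 6 HFD libraries lay above all 5 NCD libraries in 471 genes (3.19%) and below them in 586 (3.97%). Protein-coding genes made up 706 of the higher and 711 of the lower genes, from 11175 tested. The 14756 also held 999 microRNA and 411 transfer RNA genes, of which 0 were called. Shares of all genes tested include these. Immunoglobulin variable segments made up 155 of the lower genes and 0 of the higher ones. Counts depended on the scale: the deposited TPM gave 244 higher and 3905 lower, with the median of all genes moved to −0.41 on the log2 scale, and rescaled TPM with each library's own floor gave 4956 higher and 1553 lower. The counts fell to 378 higher and 374 lower without WT-NCD replicate 2, to 463 and 418 without WT-NCD replicate 1, and to 458 and 455 without Casp11-/- NCD replicate 1. They were 1136 and 1695 without Casp11-/- NCD replicate 2. The lower genes numbered 539 without WT-HFD replicate 1, 562 without WT-HFD replicate 2, 539 without Casp11-/- HFD replicate 1 and 611 without Casp11-/- HFD replicate 2.

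The genotypes were next read apart, since a gene called over both tends to have the same sign in each by its selection. Within WT, 114 genes were higher (0.773%) and 217 lower (1.47%), and within the libraries labelled Casp11-/-, 254 were higher (1.72%) and 128 lower (0.867%). Both counts rested on single libraries: the 331 genes within WT became 39 and 32 when WT-NCD replicates 1 and 2 were dropped, 88, 72 and 192 when WT-HFD replicates 1 to 3 were, and 527 without Casp11-/- NCD replicate 2. The 382 genes within Casp11-/- became 7 without Casp11-/- HFD replicate 3, 18 without Casp11-/- NCD replicate 1, 64 without Casp11-/- HFD replicate 1, 167 without Casp11-/- NCD replicate 3 and 2197 without Casp11-/- NCD replicate 2, and 74 to 230 without any 1 WT library. The 2 sets of libraries do not overlap, although one estimate of the spread served both. Of the 114 genes higher in WT, 106 were positive in Casp11-/- and 82 of these had an unadjusted p under 0.05 there, or 71.9% against 7.33% of all genes tested. Of the 217 lower in WT, 208 were negative in Casp11-/- and 169 had an unadjusted p under 0.05, or 77.9% against 13%. Of the 254 genes higher in Casp11-/-, 248 were positive in WT and 175 had an unadjusted p under 0.05, or 68.9% against 8.66%. Of the 128 lower in Casp11-/-, 121 were negative in WT and 102 had an unadjusted p under 0.05, or 79.7% against 6.90%. Across all 14756 genes, which are not independent replicates, the log2 differences of the genotypes had a Pearson r of 0.68 and a Spearman rho of 0.65. The test of diet by genotype called 0 genes (0%) in limma, as did voom on the recovered reads, with 633 genes (4.29%) at an unadjusted p under 0.05. It called 22 genes without Casp11-/- NCD replicate 1, 3 without Casp11-/- NCD replicate 2 and 1 without WT-NCD replicate 2. The smallest adjusted p, 0.0529, belonged to the heavy chain segment Ighv3-4, at 61.9 and 37.1 in WT-NCD and at or near the floor in the other 9 libraries.

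**Figure D2:**
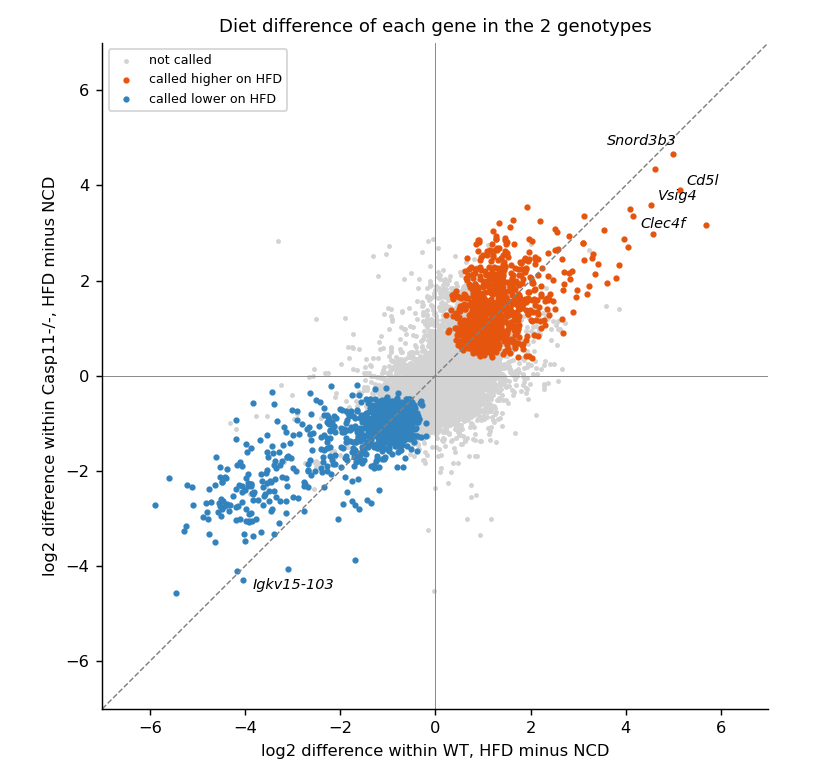
Log2 difference of HFD minus NCD within WT (x axis) and within the libraries labelled Casp11-/- (y axis) for each of the 14756 genes tested, with the 760 genes called higher in orange, the 919 called lower in blue and the others in grey. Called genes lie in the lower left and upper right quadrants, on both sides of the dashed line of equal differences.

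Kupffer cell genes had the highest median of the lists. Of 18 genes in the list, 13 rose, 0 fell and 5 did not pass the test, with a median log2 difference of 2.63 (2.81 within WT and 2.25 within Casp11-/-), beside −0.00045 over all genes tested. All 18 were positive, and in 12 of them the diets did not overlap. Cd5l, a secreted scavenger receptor protein of tissue macrophages, was at 25.4 and 11.4 in WT-NCD, 778, 476 and 683 in WT-HFD, 16.8, 26.1 and 18.0 in Casp11-/- NCD, and 343, 243 and 364 in Casp11-/- HFD. Every HFD library was far above every NCD library. The log2 difference was 4.45 ± 0.29 (SE, adjusted p = 5.68e-06 in limma), the smallest adjusted p of all genes, shared with Iglv1.

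Vsig4, a receptor for complement fragments on resident macrophages, stood at 19.1 and 14.2 in WT-NCD, 596, 314 and 350 in WT-HFD, 16.4, 27.9 and 27.7 in Casp11-/- NCD, and 367, 183 and 369 in Casp11-/- HFD. Its log2 difference was 4.01 ± 0.29 (SE, adjusted p = 1.19e-05). Clec4f, a lectin by which mouse Kupffer cells are recognised, ranged from 11 to 28.8 in NCD and from 144 to 410 in HFD (log2 difference 3.72 ± 0.31, adjusted p = 6.18e-05). It had 101 to 159 reads in each NCD library, so its low level there was not an absence of reads. Folr2, a folate receptor of resident macrophages, was at the common floor in 3 of the 5 NCD libraries and at 51.3 to 94.2 in 5 HFD libraries, with 162 in WT-HFD replicate 1. In reads per 1000000 protein-coding reads, Folr2 was at 1.61 to 3.51 in NCD and 24.9 to 80.2 in HFD. The 5 members that did not pass were Csf1r (log2 difference 0.72), Marco (0.77), Id3 (0.73), Nr1h3 (1.10) and Spic (0.45), chosen for mention after their values were seen. Marco was at the common floor in all 5 NCD and 2 of the 6 HFD libraries. Spic was at it in 3 of the 5 NCD libraries, so the changes of both were poorly measured. Without Casp11-/- NCD replicate 3, Csf1r (adjusted p = 0.0247), Spic (0.0376) and Nr1h3 (0.0474) did pass, and Nr1h3 also passed by voom and without Casp11-/- NCD replicate 2. Vsig4, Timd4, Marco, Nr1h3, the 3 chains of C1q, Slc40a1 and Cd163 are counted in this list and in others below.

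**Figure D3:**
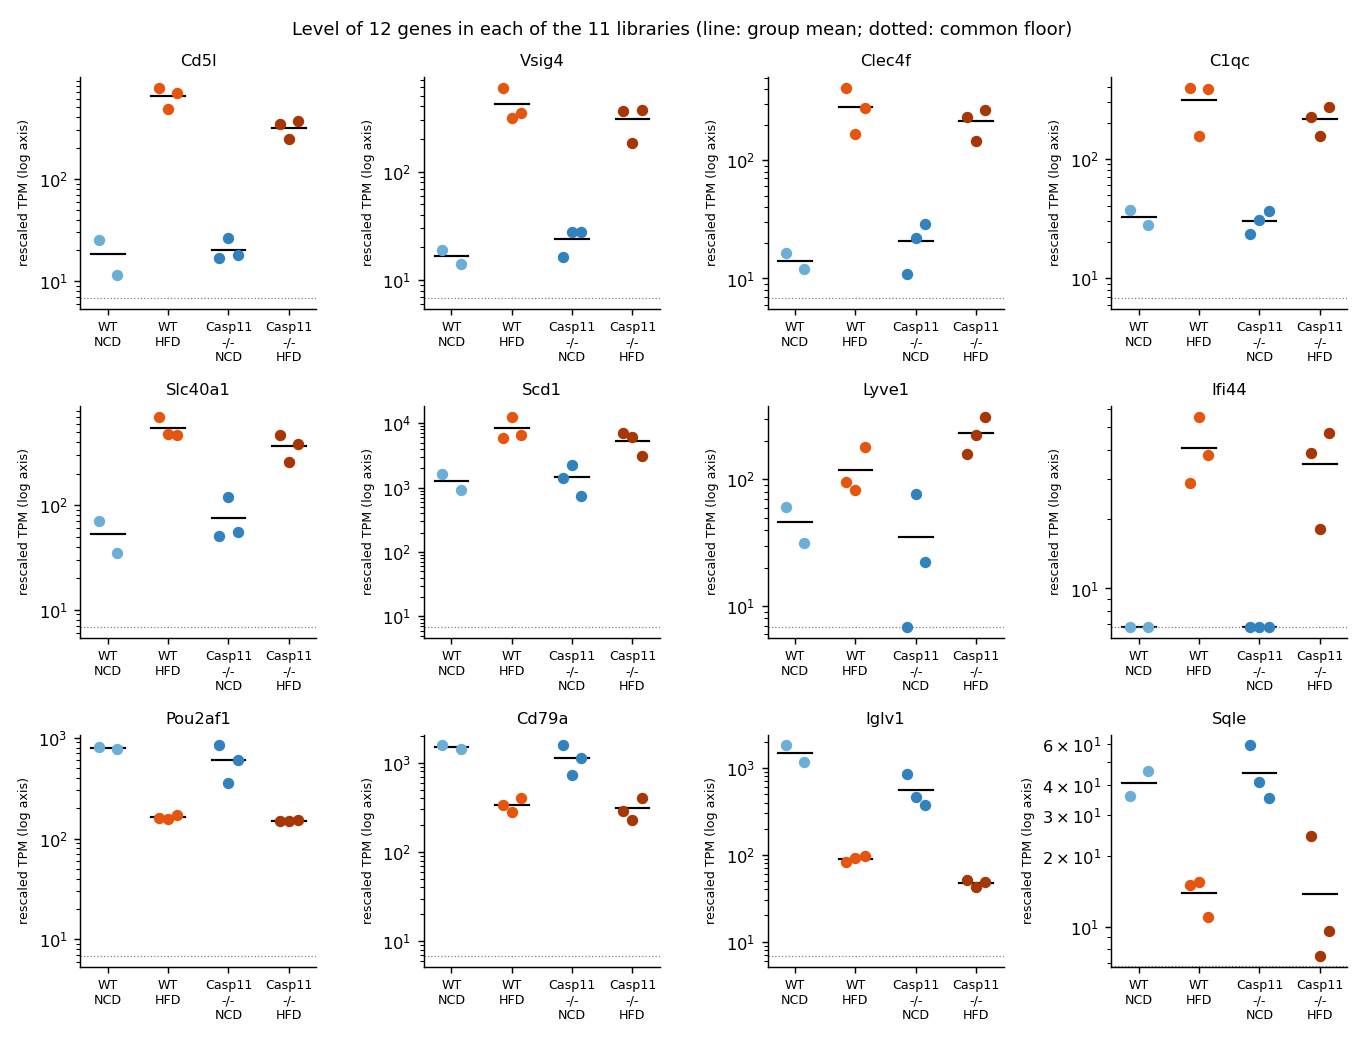
Rescaled TPM (log axes that differ between panels) of 12 genes in each of the 11 libraries, with points for libraries, lines for group means and a dotted line for the common floor of 6.79. The 6 HFD libraries lie above the 5 NCD libraries for Cd5l, Vsig4, Clec4f, C1qc, Slc40a1, Scd1, Lyve1 and Ifi44 and below them for Pou2af1, Cd79a, Iglv1 and Sqle.

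The 3 chains of C1q, which opens the classical complement pathway and is made by tissue macrophages, rose by similar amounts. C1qa, C1qb and C1qc had log2 differences of 2.90 ± 0.28, 2.93 ± 0.27 and 2.93 ± 0.27 (SE, adjusted p of 0.000147, 0.000113 and 0.00011). C1qb was at 37.0 to 60.9 in NCD and at 241 to 682 in HFD. Of 16 complement genes, 7 rose and 0 fell, and all 16 were positive (13 rose without Casp11-/- NCD replicate 2). C3ar1, the receptor for the C3a fragment, was at 10.8 and 6.79 in WT-NCD against 44.3, 42.4 and 39.0 in WT-HFD. In the libraries labelled Casp11-/-, it was at 18.2, 12.1 and 16.7 on NCD against 41.3, 27.1 and 20.0 on HFD (log2 difference over both 1.42 ± 0.30, adjusted p = 0.00926).

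Receptors for lipoproteins and dying cells rose in 9 of 14 members tested and fell in 0. Stab1 and Stab2 are counted here and among the endothelial genes below. Cd36, which takes up fatty acids and oxidised lipoproteins, was at 26.5 to 72.5 in NCD and 161 to 475 in HFD (log2 difference 2.63 ± 0.31, adjusted p = 0.000534). The scavenger receptor Msr1 rose by 2.11 ± 0.33 (adjusted p = 0.00237) and the apoptotic cell receptor Axl by 1.94 ± 0.30 (adjusted p = 0.00207). Timd4, which binds phosphatidylserine and marks long-lived Kupffer cells, was at 6.79 to 7.96 in NCD and 23.9 to 87.0 in HFD, with no overlap. The hemoglobin receptor Cd163 was at the common floor in all 5 NCD libraries and at 22.6 to 40.8 in HFD, so its log2 difference of 1.84 ± 0.20 understates the change (adjusted p = 0.000356). In reads per 1000000 protein-coding reads, Cd163 was at 5.42 to 6.09 in the 3 NCD libraries with a recovered value and at 34.5 to 68.6 in HFD.

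Among genes of iron and heme, 3 of 14 rose (5 without Casp11-/- NCD replicate 3). Slc40a1, the iron exporter ferroportin, was at 71.0 and 34.8 in WT-NCD, 702, 476 and 466 in WT-HFD, 51.1, 118 and 54.7 in Casp11-/- NCD, and 471, 256 and 382 in Casp11-/- HFD. The diets did not overlap (log2 difference 2.82 ± 0.31, adjusted p = 0.000429). Hmox1, which breaks heme down, was at 56.6 to 314 in NCD and 280 to 489 in HFD, so that 1 NCD library, Casp11-/- replicate 3, fell inside the HFD range. Its adjusted p was 0.0144, and 0.0502 without WT-NCD replicate 1. The third member was Cd163.

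Lipid-associated macrophage genes rose in 6 of 12 members. The count was 2 without WT-NCD replicate 2 or Casp11-/- NCD replicate 1 and 3 without WT-NCD replicate 1, WT-HFD replicate 3 or Casp11-/- HFD replicate 2. Trem2, the receptor for which that state is known, was picked after its value was seen. It had a log2 difference of 0.09 (adjusted p = 0.786 in limma). Trem2 was at the common floor in 3 of the 5 NCD and 2 of the 6 HFD libraries, so a change in it could hardly be measured. Lpl, which frees fatty acids from lipoproteins, was at 10.7 to 40.2 in NCD and 57.0 to 222 in HFD (log2 difference 2.84 ± 0.41, adjusted p = 0.00148). The fatty acid carrier Fabp4 rose by 1.86 ± 0.38 (adjusted p = 0.00887), and Fabp7, another carrier, was at 6.79 to 8.47 in NCD and 29.9 to 102 in HFD. Scd1, which desaturates fatty acids, was at 1633 and 905 in WT-NCD, 5965, 12651 and 6548 in WT-HFD, 1398, 2206 and 751 in Casp11-/- NCD, and 6967, 6104 and 3045 in Casp11-/- HFD. The lowest HFD library was above the highest NCD library (log2 difference 2.27 ± 0.38, adjusted p = 0.00312). Elovl5, an elongase, rose by 1.07 ± 0.19 (adjusted p = 0.00463). In fatty acid synthesis 3 of 12 genes rose (5 without Casp11-/- NCD replicate 2), and in fatty acid oxidation 1 of 21 did (5 without Casp11-/- NCD replicate 2, 2 without Casp11-/- NCD replicate 3 or WT-HFD replicate 3), the pyruvate dehydrogenase kinase Pdk4 (1.66 ± 0.25, adjusted p = 0.00178). The count for oxidation is no more than the 5.15% of all genes called higher. Of its 21 members 19 were positive, with a median of 0.45, and 6 were higher at an unadjusted p under 0.05 in limma. Pdk4 was at the common floor in 4 of the 5 NCD libraries.

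Of 14 LXR targets and efflux genes, 6 rose and 0 fell, a count that was 2 without WT-NCD replicate 1, WT-NCD replicate 2, WT-HFD replicate 2 or Casp11-/- HFD replicate 3, and 3 without Casp11-/- HFD replicate 1 or 2. In the TPM as deposited, 0 rose and 1 fell. On the rescaled scale the summed levels of the diets overlapped, at 2251 to 7236 in NCD and 6154 to 10167 in HFD. Abca1, the transporter that loads cholesterol onto apolipoproteins, was at 87.2 to 135 in NCD and 227 to 283 in HFD (log2 difference 1.08 ± 0.17, adjusted p = 0.00257). Apoc1 rose by 1.66 ± 0.38 (adjusted p = 0.0145 in limma), although the diets overlapped, at 247 to 1316 in NCD and 1073 to 1992 in HFD. Of 21 cholesterol synthesis genes, 0 rose and 8 fell, or 5 without Casp11-/- NCD replicate 1 and 5 under median-ratio scaling. Sqle, an early oxygen-dependent enzyme of sterol synthesis, was at 35.9 and 46.2 in WT-NCD, 15, 15.5 and 11 in WT-HFD, 59.1, 41.1 and 35.2 in Casp11-/- NCD, and 24.3, 7.49 and 9.56 in Casp11-/- HFD. No HFD library reached an NCD library (log2 difference −1.66 ± 0.29, adjusted p = 0.00391). Srebf2, which encodes SREBP2, fell by 1.28 ± 0.24 (adjusted p = 0.00536) and the demethylase Cyp51 by 1.15 ± 0.21 (adjusted p = 0.00495).

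Lysosomal genes gave 7 higher and 1 lower of 32, the lower count being 0 without either WT-NCD library, WT-HFD replicate 1 or 2, Casp11-/- NCD replicate 1 or Casp11-/- HFD replicate 1, and 2 without Casp11-/- NCD replicate 2. Lamp2, a membrane protein of lysosomes, was at 105 to 230 in NCD and 381 to 582 in HFD (log2 difference 1.41 ± 0.23, adjusted p = 0.00254). Lipa, the acid lipase, rose by 1.26 ± 0.23 (adjusted p = 0.00432) and Scarb2, a lysosomal receptor, by 1.10 ± 0.19 (adjusted p = 0.00336). The median of the list was 0.18, with 20 members positive, and the deposited TPM gave 0 higher and 4 lower. Glycolysis (17 genes tested), nuclear oxidative phosphorylation (76) and the proteasome (37) had 0 genes called in limma, with medians of 0.08, 0.02 and −0.14. The deposited TPM, on which all genes moved by −0.41, gave 2, 9 and 8 lower genes in them, and voom on the recovered reads gave 0. At an unadjusted p under 0.05 they had 1, 6 and 2 genes. The tricarboxylic acid cycle had 1 of 17 genes higher, beside 5.15% of all genes. The count was 0 without either WT-NCD library, WT-HFD replicate 2, Casp11-/- NCD replicate 1 or Casp11-/- HFD replicate 1. The list had 1 lower gene without Casp11-/- NCD replicate 2, and 0 higher and 7 lower in the deposited TPM.

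Markers of sinusoidal endothelium moved with those of Kupffer cells. Of 16 genes, 14 rose and 0 fell, with a median of 2.06 (1.28 within WT and 2.62 within Casp11-/-), and the diets did not overlap in 10. The count was 5 without WT-NCD replicate 2 and 8 without Casp11-/- HFD replicate 1. Lyve1, a hyaluronan receptor of this endothelium, was at 60.7 and 31.7 in WT-NCD, 95.4, 81.9 and 182 in WT-HFD, 6.79, 76.7 and 22.3 in Casp11-/- NCD, and 158, 226 and 314 in Casp11-/- HFD. The lowest HFD library stood just above the highest NCD library (log2 difference 2.38 ± 0.53, adjusted p = 0.014). The angiopoietin receptor Tek rose by 2.27 ± 0.43 (adjusted p = 0.0055), the endothelial cadherin Cdh5 by 2.07 ± 0.39 (adjusted p = 0.00578) and the nuclease Dnase1l3 by 2.05 ± 0.43 (adjusted p = 0.00927). Vcam1, an adhesion molecule of endothelium and Kupffer cells, was at 13.1 to 19.9 in NCD and 55.4 to 120 in HFD (log2 difference 2.11 ± 0.24, adjusted p = 0.000429). In bulk RNA, more cells of a type and more RNA per cell cannot be told apart, and levels are shares of the protein-coding total.

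The summed level of the 16 endothelial genes, in rescaled TPM, was 657 to 3501 in NCD and 4056 to 14504 in HFD. That of the 18 Kupffer cell genes was 513 to 1158 in NCD and 2062 to 5133 in HFD, so both sums separated the diets. Hepatocyte genes (0 of 18 called) summed to 20288 to 117581 in NCD and 49480 to 110301 in HFD, more than the Kupffer cell genes in every library, although the labels name macrophages. Alb, the gene of serum albumin, alone had a level of 11162 to 54486 in NCD and 24102 to 56892 in HFD, and passed no test (log2 difference 0.75 ± 0.59, adjusted p = 0.366). All 18 hepatocyte genes were positive, with a median of 0.91, with 6 at an unadjusted p under 0.05. None was called by voom, 9 were called without Casp11-/- NCD replicate 2 and 2 without WT-HFD replicate 3. The part of hepatocyte RNA in the other results was not tested. Of 9 stellate cell genes tested, 3 rose, including Rgs5 (1.98 ± 0.38, adjusted p = 0.00578) and the proteoglycan Dcn (1.41 ± 0.25, adjusted p = 0.0043), and their sum was 114 to 179 in NCD and 219 to 717 in HFD. Of 44 cytochrome P450 genes, 5 rose, with 2 to 21 when 1 library was left out. The highest of these counts came without Casp11-/- NCD replicate 2 and the lowest without WT-NCD replicate 2. Cyp2c37 was at 14.2 to 86.9 in NCD and 88.2 to 399.7 in HFD and has close paralogs, so its reads may be shared with them. Of 6 platelet genes tested, 2 rose and 4 did not pass, with a median of 0.09, and 1 rose without either WT-NCD library. The platelet chemokine Ppbp was at 32.2 to 103 in NCD and 156 to 326 in HFD (log2 difference 2.0 ± 0.30, adjusted p = 0.00178). Pmp22, a myelin and endothelial membrane protein, was at the common floor in all 5 NCD libraries and at 19.3 to 32.4 in HFD.

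**Figure D4:**
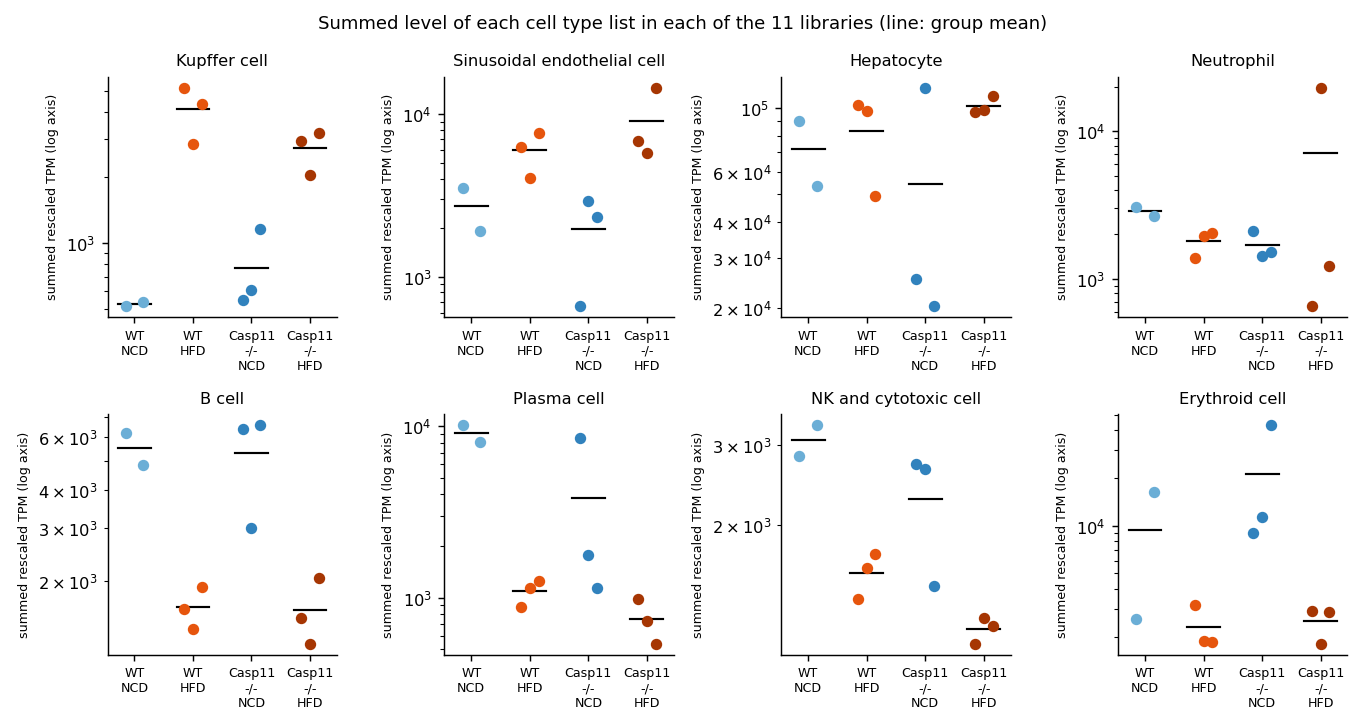
Summed rescaled TPM (log axes that differ between panels) of the genes of 8 cell type lists in each of the 11 libraries, with points for libraries and lines for group means. Kupffer cell and sinusoidal endothelial sums are higher in every HFD library than in every NCD library, the B cell sum is lower, and the other sums overlap between the diets.

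B cell genes moved the other way. Of 14 genes, 13 fell, 0 rose and 1 did not pass, with a median of −1.64 (−1.68 within WT and −1.65 within Casp11-/-), and in all 13 the diets did not overlap. Their summed level was 3010 to 6551 in NCD and 1244 to 2054 in HFD. Pou2af1, the coactivator that B cells use at octamer sites, was at 819 and 771 in WT-NCD, 161, 156 and 173 in WT-HFD, 839, 354 and 603 in Casp11-/- NCD, and 149, 148 and 152 in Casp11-/- HFD. HFD libraries lay within a narrow range and below all NCD libraries (log2 difference −2.07 ± 0.22, adjusted p = 0.000341). Cd79a and Cd79b, the signalling chains of the B cell receptor, fell by 1.99 ± 0.24 and 1.97 ± 0.25 on the log2 scale (adjusted p of 0.000743 and 0.000896). The IgM receptor Fcmr fell by 1.93 ± 0.27 (adjusted p = 0.00144) and the low-affinity IgE receptor Fcer2a by 1.81 ± 0.28 (adjusted p = 0.00227). Casp11-/- NCD replicate 2 was the lowest NCD library for Pou2af1, Cd79a, Cd79b and Fcmr. Other genes with the smallest p among those that fell were Tent5c, a poly(A) polymerase of plasma cells (−2.18 ± 0.28, adjusted p = 0.000969), Syvn1, a ubiquitin ligase of the endoplasmic reticulum (−1.26 ± 0.17, adjusted p = 0.00116), Hip1r, which links clathrin to actin (−1.71 ± 0.24, adjusted p = 0.00141), the kinase gene Sbk1 (−1.67 ± 0.24, adjusted p = 0.00147), B3gnt8, a glycosyltransferase (−2.01 ± 0.29, adjusted p = 0.00158), and the valyl-tRNA synthetase Vars (−1.45 ± 0.22, adjusted p = 0.00183).

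Vpreb3, a B cell gene of the surrogate light chain family, fell from 48.1 to 129 in NCD to 16.6 to 29.8 in HFD (log2 difference −2.15 ± 0.27, adjusted p = 0.000896). Its promoter is shown because it holds the octamer ATGCAAAT, the element by which B cell promoters were first recognised, here on the minus strand. Promoters were taken from RefSeq on GRCm38.p6, as 250 bases before to 50 after the start, and capitals mark the match.
Vpreb3 promoter, plus strand, chr10:75948209-75948308: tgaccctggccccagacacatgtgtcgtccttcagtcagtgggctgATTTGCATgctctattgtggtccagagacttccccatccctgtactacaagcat
The match starts 45 bases before the start. On either strand, the octamer was in 25 of 588 promoters of genes that fell (4.25%), 8 of 537 of genes that rose (1.49%) and 169 of 9724 of all genes tested (1.74%). Of 10 promoters of the B cell list, 1 held the octamer and 2 held the interferon element described below. These shares are a description, and immunoglobulin segments have no entry in the promoter table.

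Plasma cell genes fell in 6 of 8 members. Jchain, which joins secreted antibody units, was at 7786 and 5785 in WT-NCD, 311, 452 and 630 in WT-HFD, 6383, 966 and 508 in Casp11-/- NCD, and 370, 152 and 94.7 in Casp11-/- HFD. The third Casp11-/- NCD library thus fell inside the HFD range (log2 difference −3.44 ± 0.56, adjusted p = 0.00262). Derl3, of the endoplasmic reticulum, fell by 3.58 ± 0.54 (adjusted p = 0.00183) and the chaperone gene Mzb1 by 3.09 ± 0.47 (adjusted p = 0.00185).

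Most of the variable segments of antibody genes that could be tested fell. Of 93 heavy chain segments tested 77 fell and 0 rose (55 to 85 fell when 1 library was left out), and of 95 kappa segments 78 fell and 0 rose (67 to 84). The medians were −2.57 and −2.86. A segment could enter the test through its level in NCD alone, so these counts describe the segments that passed the filter, which were 93 of 183 and 95 of 162 listed. When all 11 libraries had to exceed the floor, the lower counts were 19 and 49. Iglv1, a lambda light chain segment, was at 1819 and 1188 in WT-NCD, 83.0, 91.8 and 96.7 in WT-HFD, 856, 466 and 370 in Casp11-/- NCD, and 51.4, 42.2 and 47.9 in Casp11-/- HFD. The diets were far apart in both genotypes (log2 difference −3.71 ± 0.24, adjusted p = 5.68e-06). The lambda constant region Iglc1 fell by 3.09 ± 0.32 (adjusted p = 0.000303), Ighv7-3 by 3.57 ± 0.33 (adjusted p = 0.00011), Igkv14-100 by 3.11 ± 0.32 (adjusted p = 0.000254), and Igkv15-103 fell by 4.18 ± 0.46 (adjusted p = 0.000429). The summed kappa segments were at 61012 and 51369 in WT-NCD, 49768, 7821 and 7574 in Casp11-/- NCD, and 2288 to 5319 in HFD, so that NCD libraries differed among themselves more than HFD libraries did. Segments are near-copies of one another, and the division of reads between them is uncertain. Of 26 T cell receptor variable segments, 0 were called in limma and by voom, with 2 lower at an unadjusted p under 0.05.

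Among genes of antigen presentation, MHC class II fell in 6 of 10 members and rose in 0, with a median of −0.92. H2-DMb2, a chain of the peptide editor DM that B cells and other presenting cells use, was at 224 to 425 in NCD and 85.6 to 168 in HFD (log2 difference −1.67 ± 0.24, adjusted p = 0.00147). H2-Oa, which restrains DM in B cells, fell by 1.46 ± 0.26 (adjusted p = 0.00436). Cd74, the invariant chain, was at 4090 to 8080 in NCD, at 2017 to 2929 in 5 HFD libraries and at 5873 in WT-HFD replicate 3. Its adjusted p of 0.0267 rose to between 0.0515 and 0.0718 without any 1 of 7 libraries, which were both WT-NCD libraries, WT-HFD replicates 1 and 2, Casp11-/- NCD replicate 1 and Casp11-/- HFD replicates 1 and 2. Without any 1 of these libraries the count of the list was 3. MHC class I had 0 of 9 genes called in limma and by voom, with 1 lower at an unadjusted p under 0.05 and 3 lower in the deposited TPM.

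Of 14 NK and cytotoxic genes, 6 fell and all 14 were negative, with a median of −0.73. The count was 2 without either WT-NCD library, 3 without WT-HFD replicate 2, Casp11-/- NCD replicate 1 or Casp11-/- HFD replicate 1, and 2 under median-ratio scaling. The chemokine Ccl5 was at 353 to 856 in NCD and 222 to 395 in HFD (log2 difference −1.12 ± 0.20, adjusted p = 0.00478), and the pore former Prf1 fell by 1.28 ± 0.27 (adjusted p = 0.0109). Of 15 T cell genes, 0 were called in limma and by voom, 5 were lower at an unadjusted p under 0.05, and 4 were called lower without Casp11-/- NCD replicate 3 and 1 without WT-HFD replicate 3. Cd3e, a chain of the T cell receptor complex, was at 78.8 to 372 in NCD and 69.3 to 176 in HFD (adjusted p = 0.0777).

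Monocyte and neutrophil genes had 1 lower gene each, of 12 and 13, beside 6.23% of all genes. The monocyte list also had 1 higher gene without Casp11-/- NCD replicate 3. The neutrophil count was 2 without Casp11-/- NCD replicate 3 or Casp11-/- HFD replicate 2. The genes were the sialomucin Spn, at 109 to 287 in NCD and 52.8 to 139 in HFD, and Mpo, at 6.79 to 37.4 in NCD and 6.79 to 8.94 in HFD. Neutrophil genes summed to 19642 in Casp11-/- HFD replicate 2 and to 651 to 2044 in the other HFD libraries, against 1433 to 3082 in NCD. Dendritic cell genes gave 2 higher and 1 lower of 12, beside 5.15% and 6.23% of all genes. The lower one was Ccr7, the receptor that guides these cells and naive lymphocytes to lymph nodes (−1.39 ± 0.29, adjusted p = 0.00927), while the count of higher ones was 0 without WT-NCD replicate 1, WT-NCD replicate 2 or Casp11-/- NCD replicate 1 and 1 without Casp11-/- HFD replicate 1 or any 1 of the WT-HFD libraries. Of 5 erythroid genes tested, 4 globin genes fell, but 1 fell without WT-NCD replicate 2. The hemoglobin gene Hba-a1 ranged from 1298 to 23925 in NCD and from 855 to 1626 in HFD, and its adjusted p went from 0.018 to 0.0676 without that library. Hbb-bs went from 0.0149 to 0.0573. The globin genes are near-copies, and red cells were lysed during isolation; the part of the lysis in their levels was not tested. Cholangiocyte genes had 0 of 6 called in limma and by voom and 0 at an unadjusted p under 0.05, with 1 lower without WT-HFD replicate 1.

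**Figure D5:**
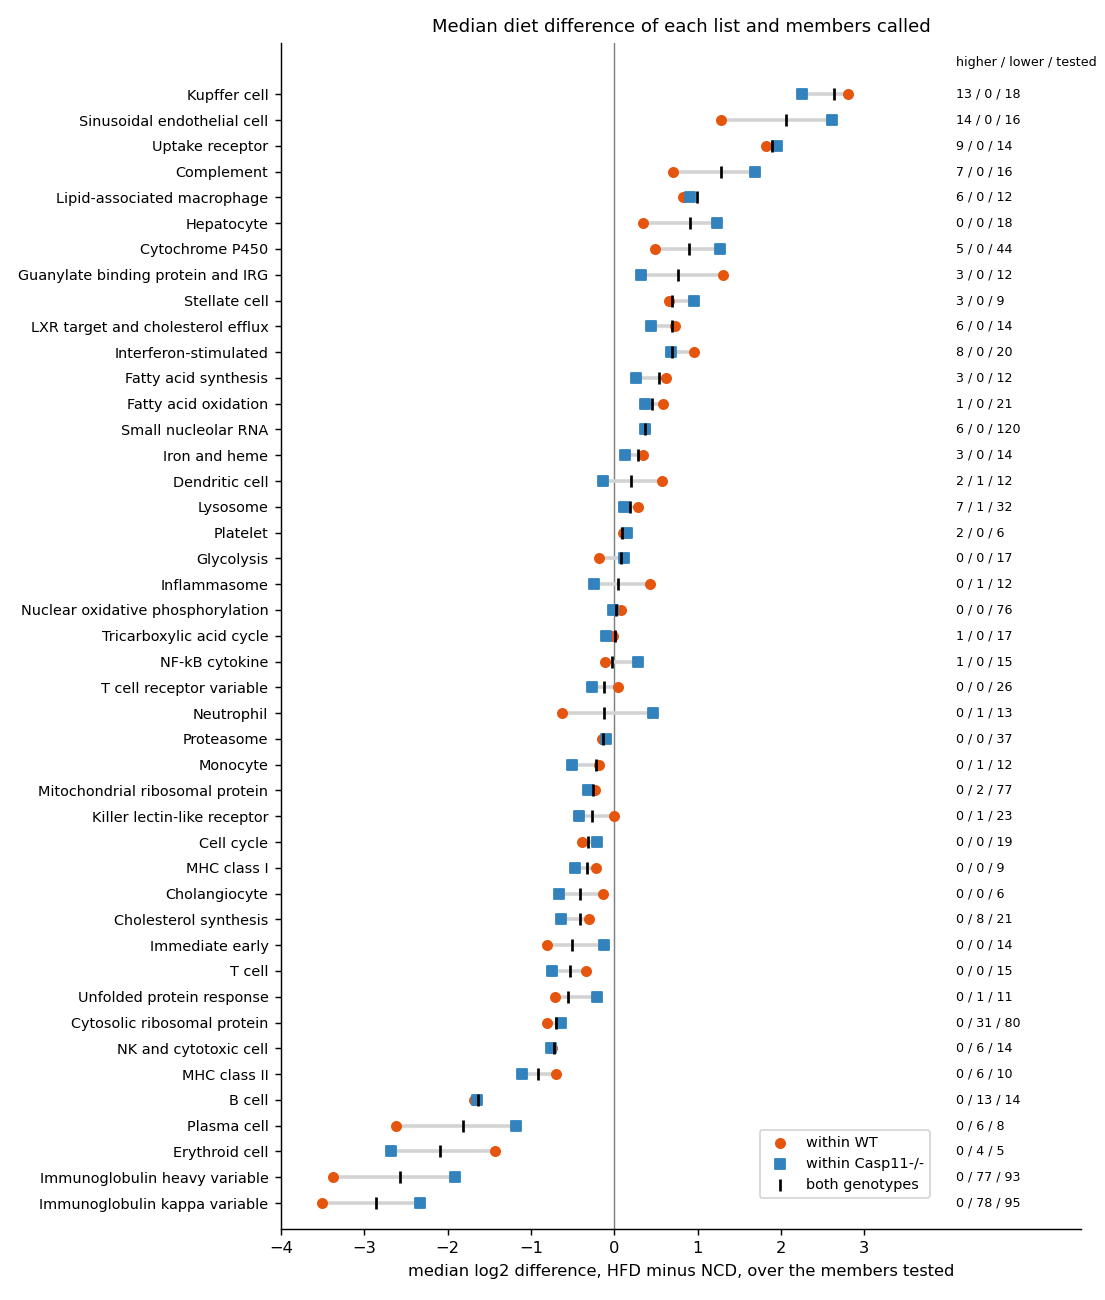
Median log2 difference of HFD minus NCD over the members tested of each gene list (x axis), within WT (circles), within Casp11-/- (squares) and over both genotypes (bars), with the members called higher, called lower and tested at the right. Over both genotypes, Kupffer cell, endothelial and uptake receptor lists lie at the top and immunoglobulin, erythroid, plasma cell and B cell lists at the bottom, while within WT the guanylate binding protein list (1.31) lies above the endothelial list (1.28).

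Interferon-stimulated genes rose in 8 of 20 members and fell in 0, with a median of 0.69 (0.95 within WT and 0.68 within Casp11-/-). Ifi44 was at the common floor in all 5 NCD libraries and at 28.8, 55.7 and 37.8 in WT-HFD and 38.5, 18.1 and 47.2 in Casp11-/- HFD. In reads per 1000000 protein-coding reads, it was at 4.06 to 6.00 in the 4 NCD libraries with a recovered value and at 19.1 to 57.8 in HFD. Rtp4, a chaperone of receptors, was at 14.4 to 28.7 in NCD and 54.9 to 81.2 in HFD (log2 difference 1.84 ± 0.23, adjusted p = 0.000743). Ifit1, Ifit2 and Ifit3, which bind foreign RNA or its sensors, rose by 1.77 ± 0.26, 1.58 ± 0.27 and 1.31 ± 0.24 (adjusted p of 0.00159, 0.00372 and 0.00463). Ifit1 was at 10.2 and 7.19 in WT-NCD, 33.7, 34.9 and 39.7 in WT-HFD, 10.7, 7.30 and 16.2 in Casp11-/- NCD, and 43.1, 23.4 and 45.1 in Casp11-/- HFD, with no overlap of the diets.

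The promoters of Ifit1 and Ifit3 are shown because both hold 2 matches of the interferon element, searched on both strands as TTTC, any pair of bases and TTTC again, which capitals mark in sequence from RefSeq on GRCm38.p6.
Ifit1 promoter, plus strand, chr19:34640739-34640838: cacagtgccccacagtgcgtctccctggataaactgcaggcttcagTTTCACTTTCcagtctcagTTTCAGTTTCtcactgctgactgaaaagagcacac
Ifit3 promoter, plus strand, chr19:34583327-34583426: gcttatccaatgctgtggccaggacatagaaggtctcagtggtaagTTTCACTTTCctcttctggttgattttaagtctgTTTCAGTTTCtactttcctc
The first match starts 104 bases before the start of Ifit1 and 156 before that of Ifit3. Of the 13 promoters of the interferon list in the table, 6 held the element (46.2%), against 28 of 537 promoters of genes that rose (5.21%), 23 of 588 of genes that fell (3.91%) and 389 of 9724 of all genes tested (4.0%). The myeloid element GAGGAAGT was in 3.35% of the promoters of genes that rose, 3.74% of those that fell and 4.09% of all tested. The sterol element TCACNCCAC was in 0.745%, 1.36% and 1.38%, and the NF-kB element in 1.30%, 1.87% and 2.15%.

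Guanylate binding proteins and immunity-related GTPases, which act on vacuoles that hold microbes, rose in 3 of 12 members, and all 12 were positive (6 rose without Casp11-/- NCD replicate 3 and 6 under median-ratio scaling). Iigp1 was at 18.8 to 55.9 in NCD and 78.9 to 177 in HFD (log2 difference 2.22 ± 0.30, adjusted p = 0.00108). Gbp7 was at 20.8 to 44.5 in NCD and 48.5 to 89.8 in HFD (log2 difference 1.14 ± 0.24, adjusted p = 0.00888). Of 12 inflammasome genes, 0 rose and 1 fell, beside 6.23% of all genes called lower. Pycard, the adaptor of the inflammasome, was at 136 and 163 in WT-NCD, 28.9, 31.2 and 44.9 in WT-HFD, 147, 44.6 and 54.6 in Casp11-/- NCD, and 32.3, 40.8 and 42.4 in Casp11-/- HFD. Its adjusted p of 0.0159 became 0.0533 without WT-NCD replicate 1 and 0.0633 without WT-NCD replicate 2. Of 15 NF-kB cytokine genes, 1 rose, beside 5.15% of all genes (3 without Casp11-/- HFD replicate 1 and 2 without Casp11-/- NCD replicate 2). This was Il1a, an alarmin of the interleukin family, at 6.79 to 19.8 in NCD, 41.5 to 96.3 in 5 HFD libraries and 333 in Casp11-/- HFD replicate 3 (log2 difference 2.81 ± 0.44, adjusted p = 0.00225).

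Cytosolic ribosomal protein genes fell in 31 of 80 members and rose in 0, with a median of −0.70, and the diets did not overlap in 21. Their sum was 68137 to 117225 in NCD and 45260 to 69900 in HFD. The count depended on single libraries, with 0 without WT-NCD replicate 1 or 2, 3 without Casp11-/- NCD replicate 1, 4 without WT-HFD replicate 1 or Casp11-/- HFD replicate 2, 5 without WT-HFD replicate 2, 9 without Casp11-/- HFD replicate 1 and 49 without Casp11-/- NCD replicate 2. It was 16 under median-ratio scaling, with no gene higher. Rpl6 was at 1093 to 1921 in NCD and 496 to 981 in HFD (adjusted p = 0.0197, and 0.0658 and 0.0687 without WT-NCD replicates 1 and 2). Rps26 was at 1385 to 2787 in NCD and 850.4 to 1242 in HFD (adjusted p = 0.018, and 0.0597 and 0.0639 without the same libraries). Mitochondrial ribosomal protein genes gave 2 lower of 77, a share below the 6.23% of all genes called lower. The count was 0 without either WT-NCD library, WT-HFD replicate 1 or 2, Casp11-/- NCD replicate 1 or Casp11-/- HFD replicate 2 or 3.

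Of 120 small nucleolar RNA genes tested, 6 rose and 0 fell, a share close to the 5.15% of all genes called higher. The count was 112 with each library's own floor and 68 with library quality weights. The own floors were 4.08 to 6.79 in the HFD libraries and 2.39 to 4.63 in the NCD libraries, so genes at their floor differ between libraries in that setting. Of the 120 genes, 115 were positive, with a median of 0.37. The U3 gene Snord3a was at 3253 and 2434 in WT-NCD, 14466, 61100 and 23297 in WT-HFD, 1854, 8961 and 4333 in Casp11-/- NCD, and 40466, 20490 and 15222 in Casp11-/- HFD. No NCD library reached the HFD libraries (log2 difference 2.84 ± 0.52, adjusted p = 0.00478). The U3 copies Snord3b3 and Snord3b4 rose by 4.81 ± 0.79 (adjusted p = 0.00282) and 4.46 ± 1.09 (adjusted p = 0.0204), the latter with an adjusted p of 0.0609 and 0.0933 without WT-NCD replicates 1 and 2. These copies share sequence, and their single values are uncertain. Among predicted short RNAs, Gm25617 rose by 3.77 ± 0.59 (adjusted p = 0.00227), Gm24407 by 3.69 ± 0.60 (adjusted p = 0.00257) and Gm25820 by 3.36 ± 0.48 (adjusted p = 0.00147). The diets overlapped for Gm25820, at 6.79 to 31.2 in NCD and 31.0 to 172 in HFD. It was at the common floor in 3 of the 5 NCD libraries. The long noncoding RNA Peak1os was at 6.79 to 7.89 in NCD and 12.3 to 15.6 in HFD (log2 difference 0.90 ± 0.15, adjusted p = 0.00296). U3 RNA separated the diets, whereas depth overlapped between them. The part of either in the changes of other genes was not tested beyond the thinned and voom counts.

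Signs of handling were also compared. Of 14 immediate early and heat shock genes, 0 were called in limma and by voom and 4 were lower at an unadjusted p under 0.05, with a median of −0.51 and summed levels of 3019 to 14332 in NCD and 1996 to 9332 in HFD. The list had 3 lower genes without Casp11-/- HFD replicate 3, 2 without Casp11-/- NCD replicate 1 or 2 and 1 without Casp11-/- HFD replicate 2. The heat shock gene Hspa1a was at 2292 and 2562 in WT-NCD, 103, 85.5 and 201.5 in WT-HFD, 64.1, 1229 and 1635 in Casp11-/- NCD, and 114, 90.5 and 1604 in Casp11-/- HFD. Its near-copy Hspa1b followed the same order of groups, with 3504 and 4122 in WT-NCD and 144 to 349 in WT-HFD. Within WT both were thus far lower on HFD, within Casp11-/- the diets overlapped, and neither passed the diet test (Hspa1a log2 difference −2.46 ± 0.95, adjusted p = 0.108). Without Casp11-/- HFD replicate 3 or Casp11-/- NCD replicate 1 both did, with an adjusted p of 0.0175 and 0.0124 for Hspa1a. The part of handling in the diet differences was not tested. Of 19 cell cycle genes, 0 were called in limma, 2 were lower by voom and 5 at an unadjusted p under 0.05, and 3 were called lower without Casp11-/- NCD replicate 2. Of 11 unfolded protein response genes, 1 was lower, beside 6.23% of all genes. The count was 0 without either WT-NCD library, WT-HFD replicate 1 or 2, Casp11-/- NCD replicate 1 or Casp11-/- HFD replicate 2, and 3 without Casp11-/- NCD replicate 2 or 3. Of 23 killer lectin-like receptor genes, 1 was lower, beside the same 6.23%. The count was 0 without either WT-NCD library, WT-HFD replicate 1 or 2 or any 1 of the Casp11-/- HFD libraries.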

How the data were processed

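Total RNA of the liver immune cell fraction was sequenced after random-primed, stranded library preparation with removal of ribosomal cDNA. The authors aligned reads with STAR to mm10 (GRCm38.p6) and deposited TPM per gene on a linear scale with a floor of 1.01. Because of that floor the deposited values are treated as a score, with 40840 genes and 6 rows without a gene name per library, which were left out.

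Protein-coding genes (21702, by RefSeq gene type) were rescaled to 1000000 per library, and values under 6.79 were raised to it. Genes above 6.79 in at least 3 of 11 libraries were kept (14756). Since each value is reads plus an offset, divided by gene length, a gene can exceed a floor without a read. Such genes, above the deposited floor, numbered 1501 to 4199 in HFD libraries other than Casp11-/- HFD replicate 3 (42). In NCD they numbered 80 to 557, except in Casp11-/- NCD replicate 3 (3246). How many of the 14756 were such genes was not counted. Shares and correlations over all genes tested include any of them. Diet was tested with limma 3.58.1 (R 4.3.3, mean-variance trend, two-sided, 8 residual degrees of freedom before moderation) on log2(value + 1) with genotype as a covariate, and Benjamini-Hochberg adjustment over all genes tested. A fit over the 4 groups gave the differences within genotypes and the interaction. Fold changes are on the log2(value + 1) scale, which understates changes of low genes.

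WT-NCD replicate 3 was left out because its values were those of 0 reads. Its values gave gene lengths, from which reads were recovered (99.92% to 99.97% of values under 300 reads were within 0.1 of whole, and 1164 genes had no length). voom on these reads tested 14250 genes and called 763 higher and 992 lower. Thinning was to 1247852 protein-coding reads. These reads served only as an alternative, since the deposited unit is not a count.

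Members and gene lists were chosen with earlier results of these data known. Genes were named by rule: Casp4; the 12 protein-coding genes of smallest p in each direction among those called whose diets did not overlap; up to 5 called members of smallest p in each list, or the 2 tested members of highest mean in a list without a call; the 3 genes of smallest interaction p in each direction; and the 5 called genes of smallest p in each direction that do not code for protein. A selection of these is described. Trem2 and the Kupffer cell genes that did not pass were picked with their values known. Alternatives tried were other scalings, floors, filters, pseudocounts, weights, a replicate block, all 12 libraries and each library left out; voom and thinning were chosen after seeing the data. Replicate numbers were checked for pairing over 15 same-numbered pairs, whose deviations correlated at −0.31 to 0.42, so they were not taken to pair the samples, although the 3 pairs among the replicates numbered 3 were at 0.21 to 0.42. Older histone symbols and mitochondrial protein genes matched 0 genes. Python 3.11.15 was used for summaries and figures.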

Additional observations from a re-analysis of the deposited data

Results flagged for a closer look

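In 279 groups of libraries, 24 had a highest or lowest library beyond Dixon's 95% critical value, where chance flags about 1 in 20 groups. Each of the 24 was a group of HFD or of NCD libraries. Only groups with at least 4 values above the common floor were tested. All values are rescaled TPM, and no cause was tested.

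Casp11-/- NCD replicate 2 stood below the other NCD libraries in Ccr7 (174), H2-DMb2 (224), Sbk1 (52.7), Vpreb3 (48.1) and the summed MHC class II genes (9967, with the others at 16796 to 20492). Casp11-/- NCD replicate 3 stood above the other NCD libraries in Rtp4 (28.7) and the summed Kupffer cell genes (1158, with the others at 513 to 607), and below them in the summed NK and cytotoxic genes (1475) and unfolded protein response genes (2675).

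Among HFD libraries, WT-HFD replicate 3 was low in Alb (24102) and the summed hepatocyte genes (49480, with the others at 97352 to 110301) and high in Cd74 (5873) and the summed MHC class II genes (18460, with the others at 6560 to 9302). WT-HFD replicate 2 was high in Abca1 (283). Casp11-/- HFD replicate 1 was high in Dcn (141) and the summed stellate cell genes (717). Casp11-/- HFD replicate 2 was low in Ifit2 (27.7) and high in the summed neutrophil genes (19642, with the others at 651 to 2044). Casp11-/- HFD replicate 3 was low in Gm25820 (31.0) and high in Tek (258), Hspa1a (1604) and Hspa1b (2509). Casp11-/- NCD replicate 1 was low in Hspa1a (64.1) and Hspa1b (108) beside the other NCD libraries.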

How the results depend on the processing

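The diet test called 1679 genes (760 higher, 919 lower). The total was 382 (203 and 179) with all 12 libraries, 6609 (3523 and 3086) with library quality weights, 6509 (4956 and 1553) with each library's own floor and 4149 (244 and 3905) in the TPM as deposited. The share of higher genes was 45.3% as reported, 76.1% with own floors and 5.88% in the TPM as deposited. Leaving out 1 library gave totals of 752 to 2831, with 378 to 1136 higher and 374 to 1695 lower. Within WT the 331 genes became 88 when genes above the floor in 1 library were kept, 60 with all 12 libraries, 6094 with weights and 32 to 527 with 1 library left out. Within Casp11-/- the 382 genes became 26, 0 and 179 under the same settings, 198 in the TPM as deposited and 7 to 2197 with 1 library left out. The interaction count of 0 became 3 with genes above the floor in 1 library, 1 in the TPM as deposited and 0 to 22 with 1 library left out. The replicate block, on numbers not taken to pair the samples, gave 2694 genes (1680 lower) over both genotypes and 679 within Casp11-/-. The own floors were 4.08 to 6.79 in the HFD libraries and 2.39 to 4.63 in the NCD libraries. The library added to make 12 was WT-NCD replicate 3, with 0 reads in nearly every gene. The cause of these moves was not tested.

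Casp4, which was not called, had a log2 difference of 0.16 as reported, −0.0072 with thinned reads and −0.47 in the TPM as deposited. With 1 library left out it went from −0.032 (without Casp11-/- HFD replicate 2) to 0.38 (without Casp11-/- NCD replicate 3), and it was −0.00040 without Casp11-/- NCD replicate 2. Of 102 genes followed over 26 alternatives, 90 were called, mostly picked for a small p. Of these, 48 lost their call with all 12 libraries and 13 in the TPM as deposited, 82 kept it with each library left out, and 0 changed sign. Of those not called, Trem2 went to −0.46 with all 12 libraries and −0.19 in the TPM as deposited, and Spic to −0.012 with all 12 libraries. Depth limits low genes most in the HFD libraries with few reads. The common floor was the rescaled floor of WT-HFD replicate 2, where protein-coding genes held 14.5% of the deposited TPM, the lowest share of the 11 libraries. Casp11-/- HFD replicate 1, the library with the fewest reads, had a rescaled floor of 5.43.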

Other observations

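Replication-dependent histone genes, whose transcripts lack poly(A) tails and pack new DNA, were listed by their current symbols after the older symbols had matched 0 genes. Of 61 tested, 49 were lower on HFD and 1 was higher, with a median log2 difference of −1.44 (−1.79 within WT and −1.10 within Casp11-/-). The lower count was 24 without WT-NCD replicate 2, and the higher count was 0 without either WT-NCD library, WT-HFD replicate 1 or 2, Casp11-/- NCD replicate 1 or Casp11-/- HFD replicate 1. H3c11 was at 821 and 1228 in WT-NCD, 189.5, 135 and 342 in WT-HFD, 744, 447 and 307 in Casp11-/- NCD, and 143, 179 and 261 in Casp11-/- HFD, so 1 NCD library lay among the HFD libraries (log2 difference −1.74 ± 0.32, adjusted p = 0.00517 in limma). H2bc7 was at 121 to 277 in NCD and 35.6 to 101 in HFD, with no overlap (log2 difference −1.70 ± 0.28, adjusted p = 0.00299). The summed level was 7004 to 21173 in NCD and 3427 to 7394 in HFD. Histone genes are near-copies, and the division of reads between them is uncertain.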
